A study of Mus musculus with 8 samples.

Results

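The genes that load, dock and fuse secretory vesicles were compared between the anchorage independent (AI) and anchorage dependent (AD) phenotypes of Neuro2a, an established mouse neuroblastoma line from the AJ strain. The list of 47 genes was set by gene name and class, but with earlier results of these data known. It covered SNAREs and complexins, synaptotagmins, active zone and priming proteins, vesicle proteins, secretogranins, and adhesion and scaffold proteins of the synapse. A probe set (transcript cluster) carrying a single gene symbol measured 46 of them, out of 19938 named genes on the array. The cluster for Vamp2, a vesicle SNARE, also carried the symbol Ubr3, so it was not analysed here. RNA came from 4 AI samples and 4 AD samples, each on its own Affymetrix mouse gene array. AI cells had been grown as floating tumorspheres in a serum-free neural stem cell medium (NeuroCult) supplied with EGF, bFGF and heparin. AD cells had been grown attached in DMEM with fetal bovine serum, penicillin/streptomycin and L-glutamine. Both phenotypes came from this 1 line. Attachment and medium changed together, so their parts cannot be told apart. The labels call the replicates biological while the methods describe replicate hybridizations, so p-values measure only the spread between these samples, which may be technical.

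As background, regulated secretion in neurons and neuroendocrine cells depends on vesicle SNAREs (synaptobrevins, the Vamp genes) pairing with SNAREs of the target membrane (syntaxins and Snap25). Synaptotagmins sense calcium, complexins bind the assembled SNARE bundle, and proteins of the active zone tether vesicles and prime them for fusion. Neuroblastoma derives from the sympathoadrenal lineage, whose cells store catecholamines and peptides in dense-core granules built around chromogranins and secretogranins. Several of the listed genes carry an element for Rest, a repressor of neuronal genes in non-neuronal cells.

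Values are log2 signals, listed per array in the order of replicates 1 to 4, and ratios are AI over AD on the log2 scale. A gene was called higher or lower at an adjusted p under 0.05 (limma, Benjamini-Hochberg over all 35556 clusters) together with a ratio of at least 1.5-fold. The median signal of an array lay between 5.92 and 5.99 log2 in AI cells and between 5.82 and 5.92 log2 in AD cells. The mean signal of the 46 genes was 7.93 to 7.97 log2 on AI arrays and 7.81 to 7.86 log2 on AD arrays, so both measures were slightly higher in AI cells. AD replicate 4 stood apart, with correlations of 0.991 to 0.993 with the other AD arrays, against 0.994 to 0.996 among AI arrays. Of 10 measured neuroblast and sympathoadrenal markers, 8 lay above the median signal of at least 1 array in one or both phenotypes, and the neurofilament genes Nefl and Nefm did not. Their mean was 8.83 to 8.90 log2 on AI arrays and 9.02 to 9.14 log2 on AD arrays, with 1 gene past the adjusted p higher in AI cells and 4 lower, among them the sympathoadrenal factor Phox2a at a log2 ratio of -1.13. Of 24 measured markers of glia, fibroblasts, leukocytes, epithelium and endothelium, 21 were below the median of every array in both phenotypes, and the list averaged 5.34 to 5.39 log2 on AI arrays and 5.32 to 5.45 log2 on AD arrays. Krt8, an epithelial keratin that other cells also express, was the 1 marker of these past the adjusted p (log2 ratio 0.46, adjusted p = 0.0461). The part of these differences in the results was not tested.

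Most of the exocytosis genes did not reach the call. Of the 46 measured genes, 3 were called higher in AI cells (Syt7, Vamp1 and Nrxn2), 0 were called lower in limma or in the unmoderated analysis of variance, and 43 were not called. At an unadjusted p under 0.05, 18 were higher and 4 lower, against 15.6% and 17.7% of named genes. Among all named genes, 2.40% were called higher in AI cells and 2.02% lower, and among all transcript clusters the shares were 2.53% and 1.39%. At an adjusted p under 0.05 with no fold threshold, 14 of the 46 genes were higher in AI cells and 3 were lower, against backgrounds of 10.7% and 11.0% of named genes. Every AI array exceeded every AD array for 17 genes and lay below every AD array for 3, against 13.2% and 13.6% of named genes. The median log2 ratio of the 46 genes was 0.05 (range -0.46 to 1.07), and that of all named genes was -0.01. Centring each array on its median lowered both alike, to -0.026 for the 46 genes and -0.090 for all named genes. RNA was measured from whole cultures, so fewer cells expressing a gene and less RNA per cell cannot be told apart.

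The counts of higher and lower genes depended on scaling. With each array centred on its median, 6 of the 46 genes passed the adjusted p as higher in AI cells and 4 as lower, and the background was 6.84% of named genes higher and 15.6% lower. Among all called clusters the share higher in AI cells was 47.0% with centring, against 64.5% without it. The genes that no longer passed with centring were Vamp4, Snap25, Syt6, Syt11, Unc13a, Syn1, Syn3 and Nrxn3, and Syt9 passed as lower. Quantile normalization gave 15 higher and 3 lower, against 11.0% and 12.9% of named genes. The unmoderated analysis of variance gave 9 higher and 2 lower, against 9.64% and 9.24%. It lost Nlgn2, Nrxn3, Rab3b, Syn1, Syn3, Syt11 and Unc13a and gained Scg3. Among the fits that left out 1 array, the counts moved most without AI replicate 3, which left 7 higher and 1 lower, and without AI replicate 4, which left 8 and 1. Without AD replicate 1 they were 9 and 3, without AD replicate 2 they were 9 and 2, and without AD replicate 3 they were 11 and 1. Without AD replicate 4 they were 15 and 2. Of the 17 genes past the adjusted p, 8 stayed past it whichever array was left out (Vamp1, Vamp4, Cplx2, Syt6, Syt7, Scg5, Nrxn2 and Dlg4), and 6 of these did so under all 15 refits tried (Vamp1, Cplx2, Syt7, Scg5, Nrxn2 and Dlg4).

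**Figure D1:**
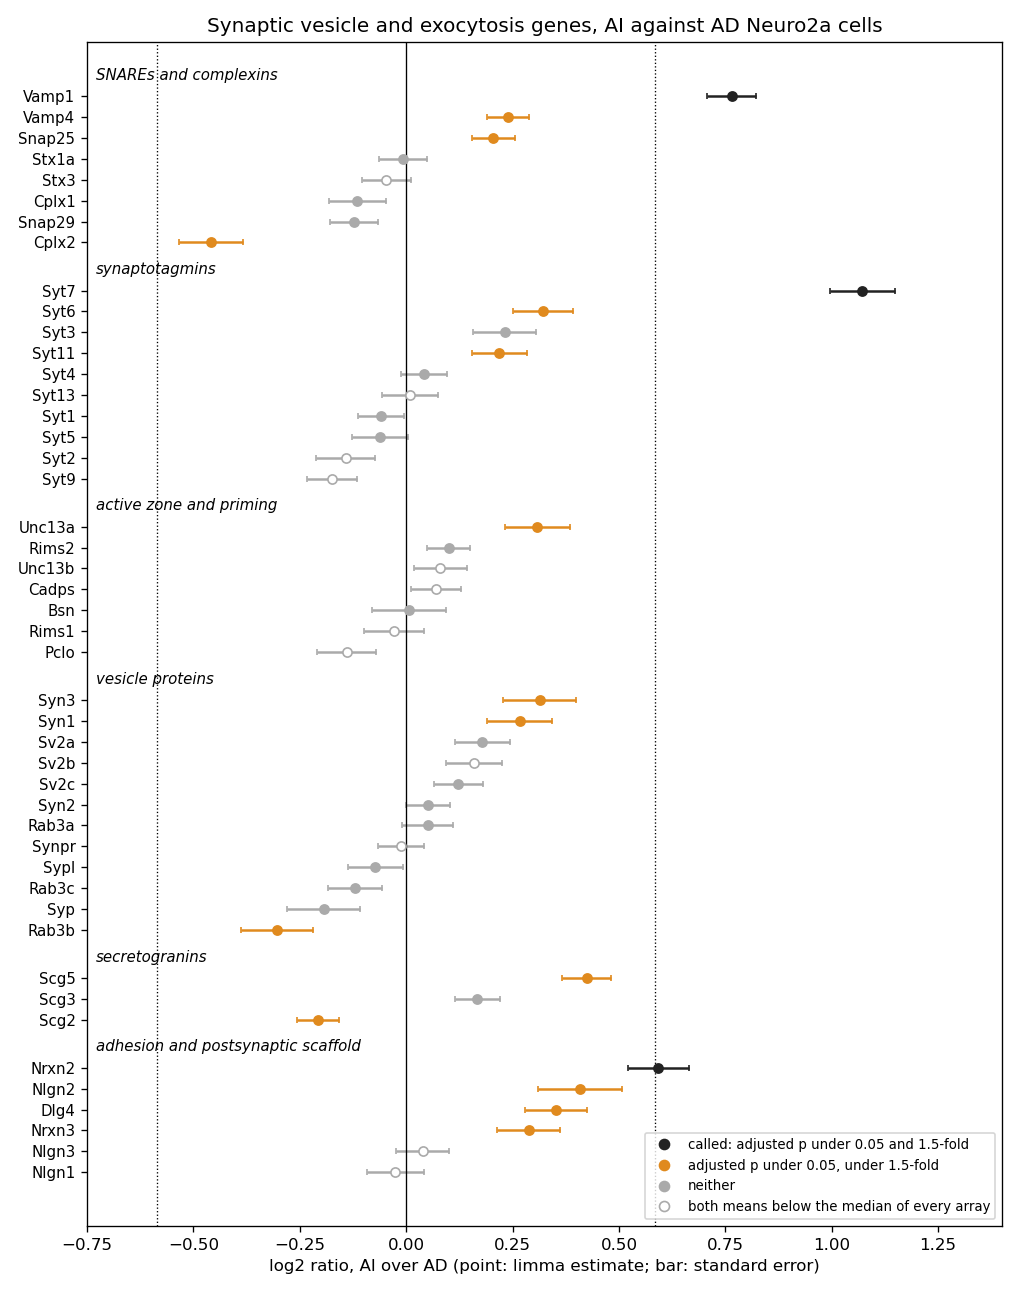
Log2 ratio of AI over AD (x axis) for the 46 measured genes, grouped by class (y axis). Points are limma estimates from 4 AI and 4 AD arrays, bars are standard errors, dotted lines mark 1.5-fold, and open points are genes whose means in both phenotypes lay below the median of every array. Syt7, Vamp1 and Nrxn2 lie past the upper dotted line, and Cplx2 is the lowest at -0.46.

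Among the SNAREs and complexins, 3 of 8 measured genes passed the adjusted p as higher in AI cells and 1 as lower. The shares of all named genes were 10.7% higher and 11.0% lower, also for the classes below. The class median was -0.03, or -0.10 with median centring, and ran between -0.060 and -0.0065 when 1 array was left out. Vamp1 (synaptobrevin 1), a SNARE of synaptic vesicles, read 6.98, 7.13, 7.18 and 7.13 log2 on the AI arrays, against 6.36, 6.36, 6.33 and 6.31 log2 on the AD arrays. All 4 AI arrays were above all 4 AD arrays, and the difference of the means was several times the SD of either phenotype. Vamp1 averaged 7.11 ± 0.09 log2 in AI cells, against 6.34 ± 0.03 log2 in AD cells (SD, n = 4 each). This was a 1.70-fold difference (log2 ratio 0.76, SE 0.06, adjusted p = 4.77e-05). The exact two-sided permutation p was 0.0286, the smallest that 4 arrays against 4 allow.

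Vamp4, a SNARE of the trans-Golgi network and of immature granules, was 1.18-fold higher in AI cells, at 9.43 ± 0.05 log2 in AI cells, against 9.19 ± 0.03 log2 in AD cells (SD, n = 4 each, adjusted p = 0.00921). Its AI arrays read 9.51, 9.41, 9.42 and 9.40 log2 and its AD arrays 9.16, 9.21, 9.19 and 9.22 log2. Snap25, the plasma membrane partner that contributes helices to the neuronal SNARE bundle, read 11.43, 11.45, 11.51 and 11.53 log2 on AI arrays and 11.29, 11.24, 11.31 and 11.25 log2 on AD arrays. AI and AD arrays were separated for both genes, but the differences were small, with a 1.15-fold ratio for Snap25 (log2 ratio 0.20, SE 0.05, adjusted p = 0.0199). Both lost the adjusted p under median centring, and Snap25 also did without AD replicate 2, AI replicate 3 or AI replicate 4.

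Cplx2 (complexin 2), which clamps and assists SNARE-driven fusion, moved the other way. Its AI arrays read 6.51, 6.47, 6.59 and 6.37 log2, and its AD arrays read 6.87, 7.07, 7.03 and 6.81 log2. Every AI array lay below every AD array, and the log2 ratio of -0.46 (SE 0.08, adjusted p = 0.00315) was a 1.37-fold lower signal in AI cells, short of the 1.5-fold threshold. Its relative Cplx1 gave 10.22 ± 0.07 log2 in AI cells, against 10.34 ± 0.10 log2 in AD cells (SD, n = 4 each). Its log2 ratio of -0.12 did not pass (adjusted p = 0.292). Stx1a, the neuronal syntaxin, averaged 7.39 ± 0.08 log2 in AI cells, against 7.40 ± 0.01 log2 in AD cells (adjusted p = 0.949). Snap29, a broadly expressed relative of Snap25, had a log2 ratio of -0.12 (adjusted p = 0.183). Stx3, a syntaxin of apical and ribbon-synapse secretion, was below the median of every array in both phenotypes (log2 ratio -0.05). In this class the higher genes were therefore Vamp1, Vamp4 and Snap25, the lower gene was Cplx2, and neither syntaxin passed.

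The promoter of Vamp1 is printed because it is the only called gene with a window in the RefSeq table, and those of Syn1 and Scg2 because both hold the left Rest segment and the cyclic AMP response element while Syn1 was higher and Scg2 lower in AI cells. Each runs 5′ to 3′ on the gene's strand, from 250 bases before the annotated start to 20 after it (RefSeq, GRCm38.p6). The windows are Vamp1 at chr6:125215331-125215600 on the plus strand, Syn1 at chrX:20920899-20921168 on the minus strand and Scg2 at chr1:79440007-79440276 on the minus strand. Capitals mark matches on either strand to the left (TTCAGCACC) and right (GGACAGC) segments of the Rest element, or to the cyclic AMP response element TGACGTCA.
Vamp1: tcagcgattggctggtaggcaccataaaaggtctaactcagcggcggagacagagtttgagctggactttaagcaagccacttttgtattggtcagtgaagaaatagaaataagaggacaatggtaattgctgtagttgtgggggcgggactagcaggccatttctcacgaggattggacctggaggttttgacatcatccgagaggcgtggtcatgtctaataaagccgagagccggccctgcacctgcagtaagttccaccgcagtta
Syn1: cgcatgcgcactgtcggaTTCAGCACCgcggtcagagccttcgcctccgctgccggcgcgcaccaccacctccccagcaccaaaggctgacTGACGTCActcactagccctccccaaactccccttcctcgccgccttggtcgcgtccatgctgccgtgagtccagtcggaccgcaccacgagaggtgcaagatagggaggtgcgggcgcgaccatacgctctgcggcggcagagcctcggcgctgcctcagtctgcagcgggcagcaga
Scg2: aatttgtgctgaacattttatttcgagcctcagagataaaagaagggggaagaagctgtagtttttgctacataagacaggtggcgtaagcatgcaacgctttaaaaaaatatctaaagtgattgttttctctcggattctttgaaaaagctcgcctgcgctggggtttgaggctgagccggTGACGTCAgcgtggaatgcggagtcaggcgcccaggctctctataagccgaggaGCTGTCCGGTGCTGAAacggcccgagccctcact

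The Vamp1 window held none of the 3 motifs. In Syn1 the left segment began 232 bases before the start and the cyclic AMP response element 159 bases before it. In Scg2 the right and left segments stood directly beside each other on the opposite strand, from 14 bases before to 2 after the start, with the cyclic AMP response element 68 bases before it. Windows from 250 bases before to 50 after the start were found for 37 of the 47 listed genes, 54 windows in all, and 4 of them, in Nlgn1, Scg2, Syn1 and Unc13a, held the left segment (7.41%, against 0.371% of all 32851 windows in the table). The right segment was in 6 windows (11.1%, against 6.56%), in Scg2, Sypl, Syt6 and Unc13a, and the cyclic AMP response element in 2 (3.70%, against 1.79%). Windows of the same gene can overlap, and a match describes the letters only, not a bound site. No window was matched for Snap25, Syt4, Syt5, Syt7, Syt13, Rims2, Syn3, Nrxn2, Nlgn3 and Vamp2. Rest itself read 6.45, 6.43, 6.64 and 6.81 log2 on AI arrays and 6.78, 6.88, 6.78 and 6.83 log2 on AD arrays. The phenotypes overlapped and the log2 ratio of -0.24 did not pass (limma adjusted p = 0.0978, unadjusted p = 0.0234).

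The synaptotagmins included the gene with the largest ratio of the 46. Syt7, a high-affinity calcium sensor for slow and asynchronous release and for granule and lysosome fusion, read 8.30, 8.35, 8.24 and 8.13 log2 on AI arrays, against 7.14, 7.32, 7.23 and 7.04 log2 on AD arrays. The lowest AI array stood well above the highest AD array. Syt7 averaged 8.25 ± 0.09 log2 in AI cells, against 7.18 ± 0.12 log2 in AD cells (SD, n = 4 each), 2.10-fold higher in AI cells (log2 ratio 1.07, SE 0.08, adjusted p = 3.64e-05, exact permutation p = 0.0286).

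Syt6, a synaptotagmin known from acrosomal exocytosis, read 9.08, 9.16, 9.21 and 9.15 log2 in AI cells, against 8.84, 8.92, 8.91 and 8.65 log2 in AD cells. It was 1.25-fold higher in AI cells (log2 ratio 0.32, SE 0.07, adjusted p = 0.0130), with no overlap between the phenotypes. Syt11, which lacks calcium binding and is linked to membrane retrieval, averaged 10.19 ± 0.08 log2 in AI cells, against 9.97 ± 0.09 log2 in AD cells (SD, n = 4 each, adjusted p = 0.0464). Its log2 ratio of 0.22 was close to the threshold, and it passed without AD replicate 4 but not when any 1 of the other 7 arrays was left out.

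The other synaptotagmins did not pass. Syt1, the main sensor of fast synaptic release, averaged 11.33 ± 0.04 log2 on AI arrays, against 11.39 ± 0.07 log2 on AD arrays (SD, n = 4 each, log2 ratio -0.06, adjusted p = 0.535). Syt5 also had a log2 ratio of -0.06 (adjusted p = 0.604), and Syt4, a synaptotagmin of dense-core granules, had 0.04 (adjusted p = 0.686). Syt3 averaged 6.05 ± 0.14 log2 in AI cells, against 5.81 ± 0.06 log2 in AD cells without overlap between arrays, yet did not pass (log2 ratio 0.23, adjusted p = 0.0606), and its AD mean was below the median of every array. Syt3 passed with dim clusters left out. Syt2, Syt9 and Syt13 were below the median of every array in both phenotypes, at log2 ratios of -0.14, -0.17 and 0.01. Of the 10 synaptotagmins, 3 passed the adjusted p, all higher in AI cells, against 10.7% of named genes. The class median was 0.02, or -0.052 with median centring.

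**Figure D2:**
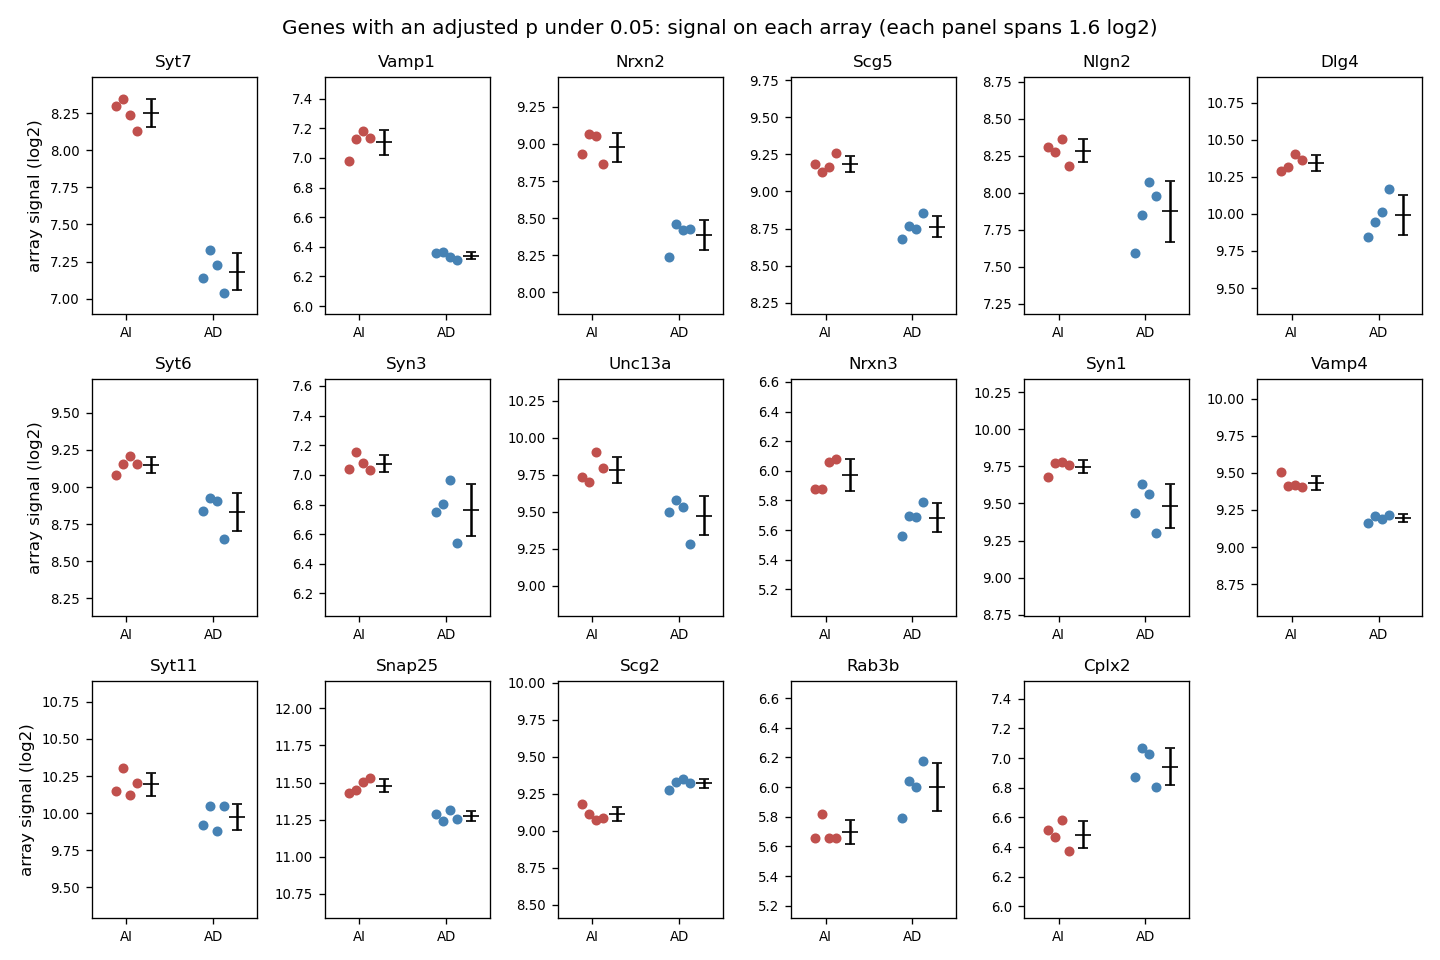
Log2 signal (y axis) on each of the 4 AI arrays and 4 AD arrays (x axis) for the 17 genes past the adjusted p, a panel each. Points are arrays in replicate order, black bars are the mean and SD, and each panel spans the same log2 range. The AI and AD arrays are separated for all of them but Rab3b, by 1.07 log2 between means for Syt7 and by 0.20 for Snap25.

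Of the 7 active zone and priming genes, 1 passed the adjusted p as higher in AI cells, against 10.7% of named genes. The class median was 0.07, or -0.0064 with median centring. Unc13a (Munc13-1), which opens syntaxin and primes vesicles, read 9.73, 9.70, 9.90 and 9.80 log2 on AI arrays, against 9.50, 9.58, 9.53 and 9.29 log2 on AD arrays. The phenotypes were separated, with a 1.24-fold higher signal in AI cells (log2 ratio 0.31, SE 0.08, adjusted p = 0.0230). Among the other clusters of Unc13a, one gave a log2 ratio of 0.38 (means of 8.19 log2 for AI and 7.81 log2 for AD, adjusted p = 0.0409) and a dimmer one gave 0.04 (adjusted p = 0.847). The brightest cluster did not pass without AD replicate 1, AI replicate 3 or AI replicate 4 and under median centring. Rims2, a scaffold that ties vesicles to calcium channels, had separated arrays but a log2 ratio of 0.10 (adjusted p = 0.232), and Bsn (bassoon), a giant scaffold of the presynapse, had 0.01 (adjusted p = 0.975). Rims1, Unc13b, Pclo and Cadps, the last a priming factor for dense-core granules, were below the median of every array in both phenotypes, at log2 ratios of -0.03, 0.08, -0.14 and 0.07.

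Vesicle membrane and vesicle-bound proteins gave 2 genes higher and 1 lower of 12, against 10.7% and 11.0% of named genes. The class median was 0.05, or -0.026 with median centring. Syn1 and Syn3, synapsins that hold vesicles in the reserve pool, passed as higher in AI cells. Syn1 read 9.68, 9.78, 9.78 and 9.76 log2 on AI arrays, against 9.43, 9.63, 9.56 and 9.30 log2 on AD arrays (log2 ratio 0.27, SE 0.08, adjusted p = 0.0393). Syn3 read 7.04, 7.15, 7.08 and 7.03 log2 on AI arrays, against 6.75, 6.80, 6.97 and 6.54 log2 on AD arrays (log2 ratio 0.31, SE 0.09, adjusted p = 0.0340). In both genes AD replicate 4 was the lowest of all arrays, and without it both still passed. Both lost the adjusted p without AD replicate 1 or any 1 of the AI arrays, Syn1 also without AD replicate 3 and Syn3 also without AD replicate 2. Syn2 had a log2 ratio of 0.05 (adjusted p = 0.572).

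Rab3b, a GTPase of secretory vesicles, read 5.65, 5.82, 5.66 and 5.66 log2 on AI arrays, against 5.79, 6.04, 6.00 and 6.18 log2 on AD arrays. AI replicate 2 lay above AD replicate 1, so the phenotypes overlapped, and the AI mean was below the median of every array. The log2 ratio was -0.30 (SE 0.08, adjusted p = 0.0354), and its size is not known exactly. Rab3b did not pass without AD replicate 2, AD replicate 3, AD replicate 4, AI replicate 1, AI replicate 3 or AI replicate 4. Rab3a and Rab3c had log2 ratios of 0.05 and -0.12 and did not pass.

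The general vesicle membrane markers did not pass. Syp (synaptophysin), the classic marker of synaptic vesicles, averaged 8.65 ± 0.13 log2 in AI cells, against 8.85 ± 0.13 log2 in AD cells (SD, n = 4 each). Its log2 ratio was -0.19 (adjusted p = 0.169). Its relatives Sypl and Synpr had log2 ratios of -0.07 and -0.01, the second below the median of every array in both phenotypes. The SV2 glycoproteins, which are common to secretory vesicles of neurons and endocrine cells, had log2 ratios of 0.18 for Sv2a (adjusted p = 0.0879), 0.16 for Sv2b and 0.12 for Sv2c (adjusted p = 0.192), with Sv2b below the median of every array in both phenotypes. Sv2a passed only with array weights and without AD replicate 4.

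The 3 secretogranins did not move together. Scg5 (7B2), the chaperone of the granule protease prohormone convertase Pcsk2, read 9.19, 9.13, 9.17 and 9.26 log2 on AI arrays, against 8.68, 8.76, 8.75 and 8.86 log2 on AD arrays. It was 1.34-fold higher in AI cells, with separated arrays (log2 ratio 0.42, SE 0.06, adjusted p = 0.00115). Scg2 (secretogranin II), a granule matrix protein cleaved to secretoneurin, read 9.18, 9.11, 9.07 and 9.09 log2 on AI arrays, against 9.28, 9.33, 9.35 and 9.32 log2 on AD arrays. Every AI array was below every AD array for Scg2 (log2 ratio -0.21, SE 0.05, adjusted p = 0.0194), which did not pass without AD replicate 3, AI replicate 3 or AI replicate 4. Scg3, which binds chromogranin A to the granule membrane, averaged 11.49 ± 0.06 log2 in AI cells, against 11.33 ± 0.04 log2 in AD cells with separated arrays and did not pass (log2 ratio 0.17, adjusted p = 0.0571). Scg3 passed with array weights, with dim clusters left out, with quantile normalization, with trended robust moderation and in the unmoderated analysis of variance.

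Adhesion and scaffold genes had the highest class median, 0.32, with 4 of 6 past the adjusted p, all higher in AI cells. The share of named genes was 10.7%. With median centring Nrxn3 no longer passed, and the share of named genes passing as higher was 6.84%. The 20 further adhesion and scaffold genes described below had a median of -0.07. Of these 20, 9 were below the median of every array in both phenotypes, against 2 of the 6 above. Nrxn2 (neurexin 2), a presynaptic adhesion receptor, read 8.93, 9.06, 9.05 and 8.86 log2 on AI arrays, against 8.24, 8.46, 8.42 and 8.42 log2 on AD arrays. All AI arrays were above all AD arrays. Nrxn2 averaged 8.98 ± 0.10 log2 in AI cells, against 8.39 ± 0.10 log2 in AD cells (SD, n = 4 each), 1.51-fold higher in AI cells (log2 ratio 0.59, SE 0.07, adjusted p = 0.000611, exact permutation p = 0.0286). It sat at the fold threshold, and the log2 ratio was 0.52 with median centring, 0.54 without AD replicate 1, 0.56 without AI replicate 2 and 0.57 without AI replicate 3, under 1.5-fold each time but past the adjusted p.

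Nlgn2 (neuroligin 2), a neurexin partner of inhibitory synapses, read 8.31, 8.27, 8.37 and 8.18 log2 on AI arrays, against 7.59, 7.85, 8.07 and 7.98 log2 on AD arrays. It was 1.33-fold higher in AI cells (log2 ratio 0.41, SE 0.10, adjusted p = 0.0198), with the AD arrays more spread than the AI arrays, and it did not pass without AD replicate 2, AI replicate 1 or AI replicate 3. Dlg4 (PSD-95), the scaffold of excitatory postsynapses, read 10.29, 10.32, 10.40 and 10.36 log2 on AI arrays, against 9.84, 9.95, 10.01 and 10.17 log2 on AD arrays. Its log2 ratio was 0.35 (SE 0.07, adjusted p = 0.00955), a 1.28-fold difference with no overlap. Nrxn3 averaged 5.97 ± 0.11 log2 in AI cells, against 5.68 ± 0.10 log2 in AD cells (SD, n = 4 each), with the AD mean below the median of every array (log2 ratio 0.29, adjusted p = 0.0249). Nrxn3 did not pass without AD replicate 1, AD replicate 2, AD replicate 3, AI replicate 3 or AI replicate 4. Nlgn1 and Nlgn3 were below the median of every array in both phenotypes, at log2 ratios of -0.03 and 0.04.

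In all, 12 of the 46 genes were below the median of every array in both phenotypes. In the main limma fit 0 of those 12 passed the adjusted p, against 10.7% higher and 11.0% lower among all named genes, dim or not. At an unadjusted p under 0.05, 1 was higher and 1 lower (Syt9), against 15.6% and 17.7% of all named genes. Syt9 passed the adjusted p as lower with median centring. A filter on the 40th percentile of mean signal kept 39 genes, of which 16 passed as higher in AI cells and 3 as lower. Under that filter 18.7% of the named genes tested passed as higher and 19.4% as lower.

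Other genes of the same machinery were taken from a list of 131, of which 121 were measured. The signal of 29 was below the median of every array in both phenotypes. Of the 121 genes, 1 was called higher in AI cells and 2 lower. At any fold 23 passed as higher and 15 as lower (12 and 22 with median centring), and the median log2 ratio of the 121 was 0.01. The shares of all named genes beside these counts are 2.40% and 2.02% for the called genes, 10.7% and 11.0% at any fold, and 6.84% and 15.6% at any fold with centring. The called genes were chosen by rule and the further examples below after their values were seen. Rimbp2, which links Rims proteins to calcium channels, read 8.09, 7.89, 7.92 and 7.87 log2 on AI arrays, against 8.84, 9.03, 8.96 and 9.07 log2 on AD arrays. It was the clearest decrease among active zone genes, with widely separated arrays (log2 ratio -1.03, SE 0.07, adjusted p = 3.40e-05). Lrrtm3, a postsynaptic leucine-rich repeat protein that binds neurexins, read 5.49, 5.36, 5.45 and 5.64 log2 on AI arrays, against 6.98, 7.02, 6.85 and 6.77 log2 on AD arrays. The AI mean was below the median of every array, so the log2 ratio of -1.42 (SE 0.08, adjusted p = 9.91e-06) is not known exactly. Stx5a, a syntaxin of transport between endoplasmic reticulum and Golgi, averaged 9.53 ± 0.08 log2 in AI cells, against 8.95 ± 0.07 log2 in AD cells (SD, n = 4 each, log2 ratio 0.59, adjusted p = 0.000319). At 1.50-fold it stood at the threshold and was not called with median centring or without AD replicate 3, AI replicate 1, AI replicate 2 or AI replicate 3.

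By class, and read against the same 10.7% higher and 11.0% lower, 5 of 29 further SNAREs, Sec1/Munc18 proteins and NSF factors passed as higher in AI cells and 1 as lower, which was Nsf, the ATPase that takes SNARE bundles apart (log2 ratio -0.29, adjusted p = 0.0114). Of 10 further synaptotagmins and C2 proteins, 7 were below the median of every array in both phenotypes. In the main limma fit 0 of the 10 passed as higher and 2 as lower. The lower genes were Doc2a, a calcium-binding vesicle protein, at a log2 ratio of -0.48 and Syt17 at -0.37. At an unadjusted p under 0.05, 0 were higher and 4 lower, against 15.6% and 17.7% of named genes. Of 22 further active zone genes, 5 were higher and 3 lower. Vesicle and recycling genes gave 7 higher and 3 lower of 27, with the dynamins split between Dnm1, the neuronal form that cuts vesicles from the membrane (log2 ratio 0.49, adjusted p = 0.000454), and Dnm3 (-0.42, adjusted p = 0.00765). Granule genes gave 5 higher and 1 lower of 8 and the highest class median of these lists, 0.20. The granule core protein Chgb (chromogranin B) averaged 11.09 ± 0.04 log2 in AI cells, against 10.61 ± 0.03 log2 in AD cells (SD, n = 4 each, log2 ratio 0.49, adjusted p = 0.000204), and the granule membrane protein Ptprn had a log2 ratio of 0.39. The lower granule gene was the prohormone convertase Pcsk1, below the median of every array in both phenotypes (log2 ratio -0.22). Further adhesion and scaffold genes gave 1 higher and 4 lower of 20, with the PSD-95 relative Dlg2 at a log2 ratio of -0.57 (adjusted p = 0.000545), past 1.5-fold when arrays were median-centred or when AD replicate 1 or AI replicate 1 was left out. Flrt3, an adhesion protein with leucine-rich repeats, had the same log2 ratio of -0.57 (adjusted p = 0.000220), with the AI mean below the median of every array, and was past 1.5-fold with array weights, either rescaling of the arrays, or AD replicate 4 left out. The regulators of neuronal genes gave 0 higher (0 also at an unadjusted p under 0.05) and 1 lower of 5, the Rest corepressor subunit Sin3a (log2 ratio -0.24, adjusted p = 0.0308). At an unadjusted p under 0.05, 2 of these regulators were lower, Rest and Sin3a.

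**Figure D3:**
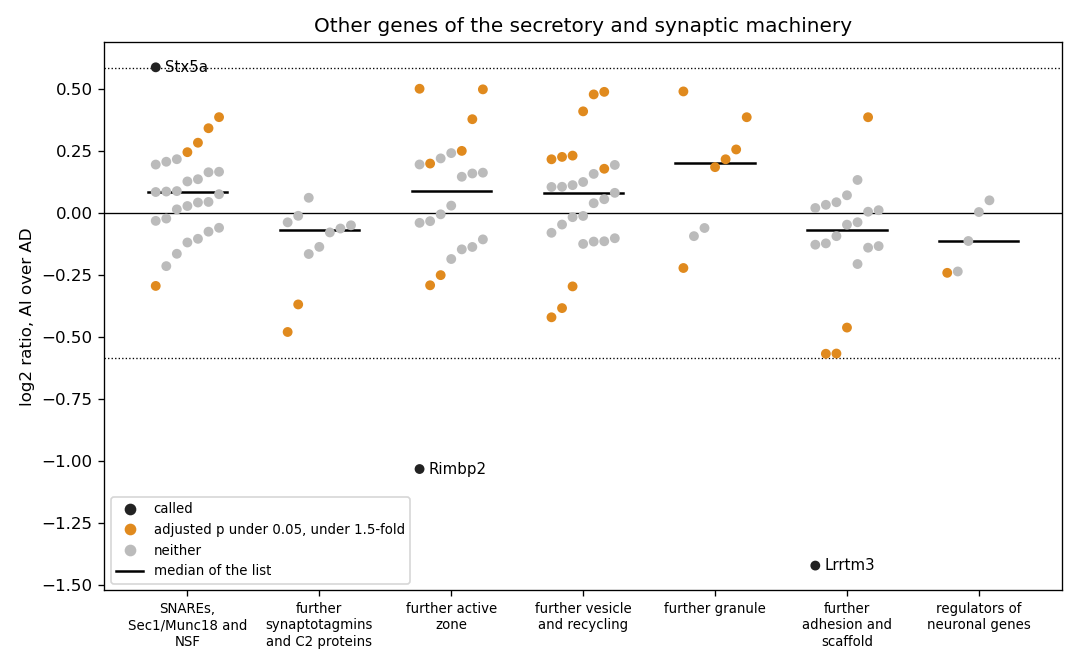
Log2 ratio of AI over AD (y axis) for the 121 other measured genes of secretion and the synapse, by list (x axis). Each point is a gene, colours mark the call, horizontal bars are list medians and dotted lines mark 1.5-fold. Stx5a lies at the upper line, and Rimbp2 and Lrrtm3 lie far below the lower line.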

How the data were processed

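The authors hybridized labelled cDNA from 4 AI and 4 AD samples to Affymetrix mouse gene arrays. The deposited values are log2 signals of 35556 transcript clusters, and the submitters' processing notes name Partek 6.5 and GCRMA. The methods also name other normalizations, and 1 is in the table. The genome build is not given in the sources used here. Background correction of this kind makes ratios of dim genes uncertain. Values were used as deposited. The direction and scale of ratios were checked against the study's list. Of 21789 clusters with a single symbol, 21698 matched RefSeq GRCm38.p6 by gene number. A gene is represented by its brightest such cluster. AI and AD were compared by lmFit and eBayes with no covariate (limma 3.58.1, R 4.3.3), which were tested on simulated data. Exact permutation tests, tables and plots used Python 3.11.15, scipy 1.17.1, numpy 2.4.6, pandas 2.3.3 and matplotlib 3.10.9. Named genes are all listed members, called genes of the other lists (up to 3 per direction and class) and Rest. Other genes of those lists were named after their values were seen. Members, lists and tests were chosen with earlier results of these data known. The alternatives were quantile normalization, median centring, a filter on dim clusters, unmoderated analysis of variance, trended robust moderation, array weights, a replicate block, other thresholds, the mean of a gene's clusters and leaving out each array. Arrays give no counts, so their number limits the precision.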

Additional observations from a re-analysis of the deposited data

Results flagged for a closer look

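Of 92 groups of 4 arrays examined (46 genes in 2 phenotypes), 3 held 1 array far from the other 3. Chance gives such an array in about 1 of 20 groups. Vamp4 read 9.51 log2 in AI replicate 1, above the other AI arrays at 9.40 to 9.42. Syn1 read 9.68 log2 in AI replicate 1, below the other AI arrays at 9.76 to 9.78. Rab3b read 5.82 log2 in AI replicate 2, above the other AI arrays at 5.65 to 5.66.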

How the results depend on the processing

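Syt7 and Vamp1 were called higher in AI cells under every setting tried, and Nrxn2 left the call only through the fold threshold. The count of genes called higher was 2 to 3 and 0 were called lower when each array was left out, 2 to 4 for the other list and 1217 to 1636 for all 1396 called clusters. With no fold threshold the counts were 14 higher and 3 lower for the 46 genes, 38 for the other list and 6444 for all clusters. Median centring moved the median log2 ratio of the 46 genes to -0.026 and that of all named genes to -0.090, and leaving out arrays gave 0.043 to 0.076. Small ratios turned sign. With median centring they were -0.070 for Bsn, -0.0064 for Cadps, -0.038 for Nlgn3, -0.026 for Rab3a, -0.025 for Syn2, -0.069 for Syt13 and -0.036 for Syt4. Quantile normalization gave -0.072 for Bsn, -0.016 for Nlgn3 and -0.050 for Syt13. Array weights gave 0.015 for Nlgn1, 0.011 for Rims1 and 0.0011 for Stx1a. Without 1 array the ratios ran from -0.044 to 0.063 for Bsn, -0.056 to 0.023 for Nlgn1, -0.0030 to 0.076 for Nlgn3, -0.090 to 0.00095 for Rims1, -0.043 to 0.015 for Stx1a, -0.031 to 0.013 for Synpr and -0.027 to 0.046 for Syt13. The cause was not tested. Same-numbered arrays had correlations of deviations of -0.11, 0.08, 0.0048 and -0.17. These gave no sign that replicate numbers pair the samples, but they cannot show how the samples were prepared. With replicate number as a block, 3 genes were called. The adjusted p was passed by 10 as higher and 1 as lower, against 8.17% and 7.70% of named genes. Snap25, Syt11, Unc13a, Syn1, Rab3b and Scg2 no longer passed. For single genes, 775 values under the alternatives kept the direction and the side of the call, 28 reversed, 14 were stronger and 4 weaker. Most of these genes were not called to begin with. A gene that lost only the adjusted p, without having been called, counts among the 775. Values near the array medians are limited by signal over background.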
